A study of Mus musculus with 12 samples.

Results

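The genes described here are those of cholesterol synthesis, its control, and the making of 25-hydroxycholesterol. They are Hmgcs1, Idi1, Fdft1, Sqle and Cyp51, which encode enzymes of the synthesis pathway, Insig1 and Srebf2, which encode regulators of that pathway, and Ch25h, which encodes cholesterol 25-hydroxylase. They were chosen by name, as the probe sets annotated to one of these symbols alone. No value entered this rule, but earlier results of these data were known when the genes were chosen. They are 8 of the 18193 genes that have a probe set with 1 gene symbol, and 19 of the 34945 such probe sets.

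Bone marrow-derived macrophages (BMDMs), the macrophages that grow from marrow cells in the presence of M-CSF, were profiled after 7 days of differentiation on Affymetrix GeneChip mouse arrays. All mice were female C57BL/6 mice with both alleles of Trsp, the gene of the selenocysteine tRNA, floxed. The 4 groups, of 3 arrays each, were ΔTrspM macrophages (Trspfl/fl-LysM-Cre+/-) with LPS for 4 h, control macrophages (Trspfl/fl-LysM-Cre-/-) with LPS for 4 h, and the ΔTrspM and control macrophages left unstimulated. LPS, lipopolysaccharide, is a bacterial cell wall component that activates macrophages through a Toll-like receptor. The age of the mice and the dose of LPS used for the arrays are not given in the sources used here. Cre was driven by the lysozyme M promoter, which is active in myeloid cells, and the control mice carried no Cre, so the presence of Cre and the loss of Trsp cannot be told apart. No probe set is annotated to Trsp, so its deletion was not checked on these arrays. Lyz2, the gene whose promoter drives Cre in this line, had a mean log2 signal of 13.78 ± 0.19 in ΔTrspM and 13.33 ± 0.18 in control macrophages with LPS, and of 13.65 ± 0.03 in unstimulated ΔTrspM and 13.41 ± 0.13 in unstimulated control macrophages (SD, n = 3 each). The arrays of the genotypes did not overlap for Lyz2, as for 9.14% of all genes with LPS and 7.32% without. Neither genotype difference of Lyz2 passed the test used below.

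Animal cells make cholesterol from acetyl-CoA by way of mevalonate, isoprenoids, squalene and lanosterol. The enzymes of this chain are transcribed under SREBP2, a membrane-bound transcription factor encoded by Srebf2, which is released by cleavage when sterols in the endoplasmic reticulum run low and held back by INSIG proteins when sterols are abundant. Cholesterol 25-hydroxylase turns cholesterol into 25-hydroxycholesterol, an oxysterol that binds INSIG proteins and so slows this pathway. In macrophages Ch25h is known as a gene induced by LPS and interferons.

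The RefSeq promoters of 4 of the genes are shown because 3 of them hold a form of the sterol regulatory element and that of Ch25h does not. Each holds the 250 bases before the annotated start, 5′ to 3′ on the strand of the gene, in the build GRCm38.p6. RefSeq promoters matched 6 of the 8 genes, and Sqle and Fdft1 are named only. The capitals mark TCACNNCA, a loose form of the sterol regulatory element that SREBPs bind, in the first 3 promoters, and TGACGTCA, the cyclic AMP response element, in that of Ch25h. Which promoters to print was decided after their letters were seen.
Hmgcs1 (chr13:119690101-119690350, + strand): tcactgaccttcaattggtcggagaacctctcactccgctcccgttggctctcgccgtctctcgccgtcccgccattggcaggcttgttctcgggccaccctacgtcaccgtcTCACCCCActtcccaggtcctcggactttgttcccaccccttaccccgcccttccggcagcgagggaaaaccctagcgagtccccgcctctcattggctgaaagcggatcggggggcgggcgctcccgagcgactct
Srebf2 (chr15:82147019-82147268, + strand): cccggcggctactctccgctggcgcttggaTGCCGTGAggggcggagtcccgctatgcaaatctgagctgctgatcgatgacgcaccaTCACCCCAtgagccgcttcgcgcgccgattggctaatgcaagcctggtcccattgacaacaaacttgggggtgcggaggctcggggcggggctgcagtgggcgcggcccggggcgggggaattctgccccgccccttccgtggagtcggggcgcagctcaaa
Cyp51 (chr5:4104698-4104947, - strand): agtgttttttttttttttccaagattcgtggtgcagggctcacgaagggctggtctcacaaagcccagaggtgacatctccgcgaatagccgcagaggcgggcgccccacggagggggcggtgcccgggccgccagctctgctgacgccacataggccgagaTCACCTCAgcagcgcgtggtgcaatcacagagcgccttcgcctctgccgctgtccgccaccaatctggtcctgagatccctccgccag
Ch25h (chr19:34475149-34475398, - strand): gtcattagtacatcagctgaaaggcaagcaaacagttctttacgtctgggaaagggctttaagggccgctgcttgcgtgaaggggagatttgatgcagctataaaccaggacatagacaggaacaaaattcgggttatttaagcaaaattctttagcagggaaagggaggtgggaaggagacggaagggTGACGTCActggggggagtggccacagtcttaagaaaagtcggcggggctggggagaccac

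Motifs were searched on both strands from 250 bases before to 50 bases after the start, and compared with all 32841 RefSeq promoters of this length. TCACNCCAC, the classical sterol regulatory element, was found in Hmgcs1 at positions -137 to -129 from the start, and in 1.24% of all promoters. The loose form TCACNNCA, which overlaps the classical one in Hmgcs1, was found at 2 places in Srebf2, of which the one beginning at -220 lies on the opposite strand, and at positions -88 to -81 in Cyp51. It was found in 13.8% of all promoters, and in neither Idi1 nor Insig1. The 5 promoters other than that of Ch25h each held a CCAAT box (CCAAT, in 37.4% of all promoters) and a GC box (GGGCGG, in 35.7%), and that of Ch25h held neither. The element TGACGTCA stands at positions -61 to -54 in Ch25h and was found in 1.79% of all promoters. GAAANNGAA, the core of the interferon-stimulated response element (8.56% of all promoters), and the kappaB consensus (8.46%) were found in none of the 6 promoters. A match is a description of the letters and not a binding site.

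The arrays differed in their overall signal before they were put on one scale. The mean deposited signal was between 492.0 and 860.9 on 11 arrays and 199.7 on the LPS-stimulated ΔTrspM array numbered 2, where 47.7% of the probe sets were under a signal of 16, against 16.1% to 28.8% on the others. All values below are log2 of the quantile-normalized signal plus 16, called log2 signal here, and values of different genes are not set against each other because probe sets differ in their response. All 8 macrophage markers, such as Csf1r and Adgre1, had a mean log2 signal of at least 6, with summed signals between 62899 and 74341, and all 4 lymphoid markers measured had a mean log2 signal under 6. The 9 stromal markers, such as Col1a2, had summed signals of 3364 to 10784 in ΔTrspM with LPS and 4751 to 5374 in control with LPS, and of 1163 to 9305 in unstimulated ΔTrspM and 595.0 to 8087 in unstimulated control macrophages. The sums with LPS include a rise of the marker Pdgfrb, given below. The unstimulated control array numbered 2 stood apart in interferon response genes, which averaged a log2 signal of 11.16 on it, against 7.77 to 8.52 on the other 5 unstimulated arrays and 12.50 to 12.67 on the 6 arrays with LPS. Inflammatory genes that respond to LPS, such as Tnf and Il6, were also highest on it among the unstimulated arrays. They averaged 9.13, against 7.43 to 8.47 on the other 5 and 12.70 to 13.41 on the 6 arrays with LPS.

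**Figure D1:**
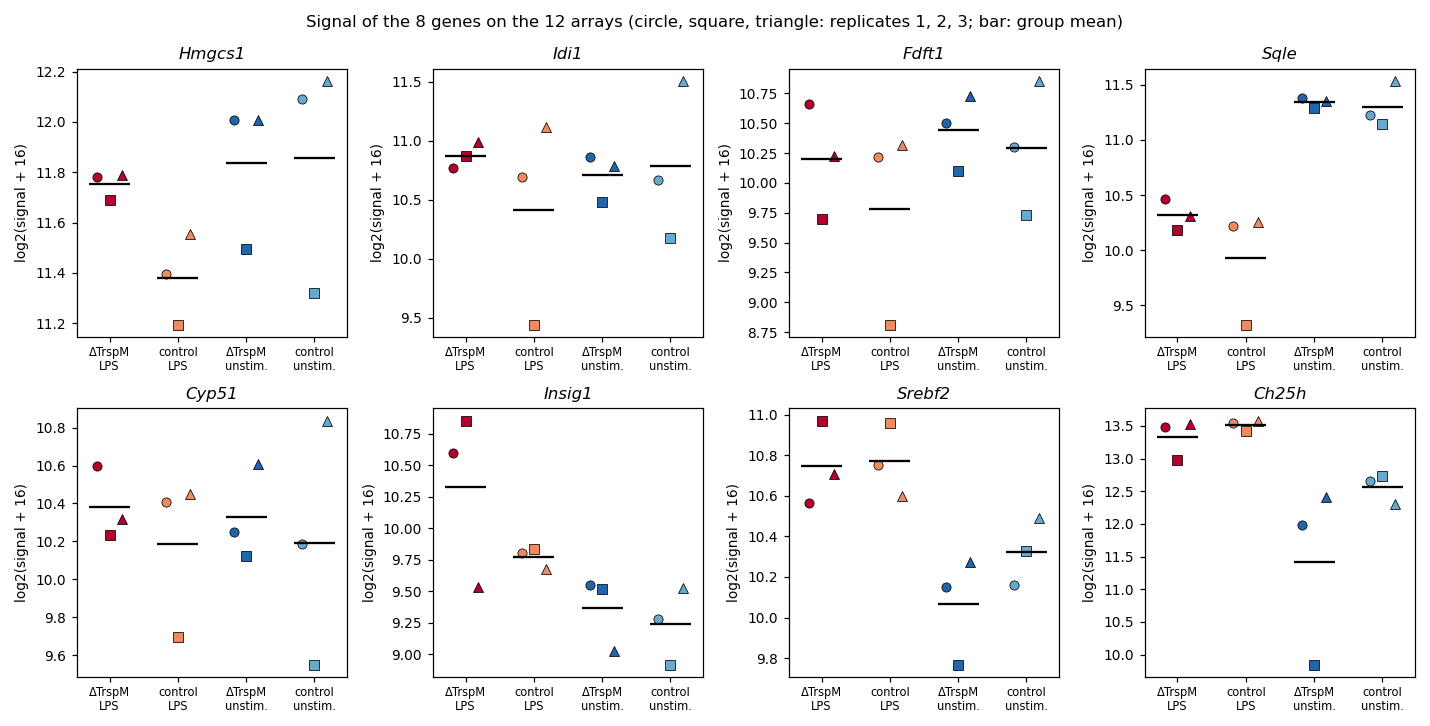
Log2 signal (vertical axis) of the 8 genes on the 12 arrays, by group (horizontal axis), with the replicate number as circle (1), square (2) or triangle (3) and the group mean as a bar. Sqle lies lower with LPS in both genotypes, with no overlap, and the square of Ch25h in unstimulated ΔTrspM macrophages lies at 9.85, below the other 11 arrays.

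The response of the 8 genes to LPS was tested in each genotype. In ΔTrspM macrophages with LPS over unstimulated ones, Srebf2 and Ch25h passed the test as higher, where 7.29% of all genes did, and Sqle as lower, where 8.51% of all genes did (limma, Benjamini-Hochberg adjusted over 18193 genes, threshold 0.05). In control macrophages 0 of the 8 genes passed as higher, against 7.09% of all genes, and Sqle alone passed as lower, against 8.54% of all genes. At an unadjusted p under 0.05, 4 of the 8 passed in ΔTrspM macrophages (28.5% of all genes) and 1 of the 8 in control macrophages (28.1% of all genes). The median log2 fold change of the 8 genes was 0.11 in ΔTrspM and -0.19 in control macrophages, and that of all genes was -0.03 and -0.05. How the arrays were scaled moved the split of calls over all genes, from 46.1% higher in ΔTrspM macrophages to 32.8% with arrays centred on their medians and 7.83% with no scaling, and from 45.4% in control macrophages to 34.1% with arrays divided by a trimmed mean. With no scaling the median of all genes shifted by -0.70 in ΔTrspM and by -0.20 in control macrophages, and Sqle was lower than that median in both.

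Sqle encodes squalene epoxidase, which adds the first oxygen to squalene and is a rate-limiting step of sterol synthesis. Its log2 signal in ΔTrspM macrophages was 10.47, 10.18 and 10.31 with LPS and 11.38, 11.29 and 11.35 without. In control macrophages it was 10.22, 9.33 and 10.25 with LPS and 11.23, 11.14 and 11.54 without. Every array with LPS was below every unstimulated one in both genotypes, and the control array numbered 2 was the lowest of all. The log2 fold change with LPS was -1.02 ± 0.25 (SE) in ΔTrspM macrophages, 2.03-fold lower (limma adjusted p = 0.018), and -1.37 ± 0.25 in control macrophages, 2.58-fold lower (limma adjusted p = 0.0037). Without the LPS-stimulated ΔTrspM array numbered 2 the fall in ΔTrspM macrophages was -0.95 with an adjusted p of 0.0578, and it also lost its call without the unstimulated ΔTrspM array numbered 1 (adjusted p = 0.0631) or 3 (adjusted p = 0.0539). Sqle had 1 probe set.

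Ch25h had a log2 signal of 13.49, 12.98 and 13.53 in ΔTrspM macrophages with LPS and of 11.99, 9.85 and 12.42 in unstimulated ones. The control arrays had 13.54, 13.42 and 13.58 with LPS and 12.65, 12.73 and 12.31 without. The arrays with LPS lay above the unstimulated ones in both genotypes, with no overlap, and the widest spread was that of the unstimulated ΔTrspM arrays (SD 1.38, against 0.08 to 0.30 in the other groups). Its log2 fold change with LPS was 1.91 ± 0.52 in ΔTrspM macrophages, 3.77-fold (limma adjusted p = 0.0279), and the call was lost without the LPS-stimulated ΔTrspM array numbered 1 (adjusted p = 0.0724) or 3 (adjusted p = 0.0772). It was 0.95 ± 0.52 in control macrophages, 1.94-fold, which did not pass (limma adjusted p = 0.261).

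The size in ΔTrspM macrophages depended on 1 array. Without the unstimulated ΔTrspM array numbered 2, where the deposited signal of Ch25h was 819.5, against 4402 and 6841 on the other arrays of that group, the log2 fold change was 1.13 ± 0.25 in ΔTrspM macrophages (limma adjusted p = 0.018) and stayed at 0.95 in control macrophages with a smaller SE of 0.23 (limma adjusted p = 0.0183). Both responses then passed. The mean deposited signal of that array, 575.0, was the lowest among unstimulated arrays, against 721.3 to 846.6 on the others. Arrays with lower means were all LPS-stimulated (492.1, 492.0 and 199.7). The part of the overall signal in the Ch25h value of that array was not tested. With LPS the 7 inflammatory genes examined, such as Tnf and Il6, rose in both genotypes, and 10 of 10 measured interferon response genes rose in ΔTrspM and 8 of 10 in control macrophages (10 of 10 in a fit that compares same-numbered arrays). Of all genes, 7.29% were higher in ΔTrspM and 7.09% in control macrophages (9.15% in that other fit). The unstimulated control array with high interferon response genes was the one at 12.73 for Ch25h, beside 12.65 and 12.31 on the other arrays of its group.

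Srebf2, which encodes SREBP2, had a log2 signal of 10.57, 10.97 and 10.71 in ΔTrspM macrophages with LPS and of 10.15, 9.77 and 10.27 in unstimulated ones. Control macrophages gave 10.75, 10.96 and 10.60 with LPS and 10.16, 10.33 and 10.49 without. The arrays with LPS again lay above the unstimulated ones in both genotypes. The change on the log2 scale was 0.68 ± 0.20 in ΔTrspM macrophages, 1.61-fold (limma adjusted p = 0.0434), and 0.44 ± 0.20 in control macrophages (limma adjusted p = 0.183). The call in ΔTrspM macrophages was close to the threshold and was made in 6 of 26 alternative settings. It was kept on leaving out the LPS-stimulated control array numbered 2 or ΔTrspM array numbered 1, and lost on leaving out any 1 of the other 10 arrays (adjusted p between 0.0508 and 0.159, the highest without the unstimulated ΔTrspM array numbered 2). The value was -0.48 with no scaling of the arrays, above the median of all genes, -0.73, in that setting. The other probe set of Srebf2 gave 0.51 in ΔTrspM and -0.02 in control macrophages, and neither passed.

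Insig1 encodes an endoplasmic reticulum protein that retains the SREBP complex and is itself a target of SREBP2. Its log2 signal was 10.60, 10.86 and 9.54 in ΔTrspM macrophages with LPS and 9.55, 9.52 and 9.02 in unstimulated ones. In controls it was 9.80, 9.84 and 9.68 with LPS and 9.28, 8.92 and 9.52 without. The LPS-stimulated ΔTrspM array numbered 3 was within the unstimulated range while the other 2 of its group were the highest of the 12. The log2 fold change was 0.97 ± 0.32 in ΔTrspM macrophages (limma adjusted p = 0.0648) and 0.53 ± 0.32 in control macrophages (limma adjusted p = 0.316). Without that array numbered 3 the value in ΔTrspM macrophages was 1.36 with an adjusted p of 0.0067, and with all arrays it also passed with a pseudocount of 64, without dim genes, and with the trend and robust options (adjusted p between 0.0408 and 0.0458).

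The other 4 enzymes did not pass the test in either genotype. Hmgcs1 encodes the cytosolic HMG-CoA synthase, which stands early in the mevalonate pathway. Its log2 signal was 11.78, 11.69 and 11.79 in ΔTrspM macrophages with LPS and 12.01, 11.49 and 12.01 in unstimulated ones. The control arrays read 11.40, 11.20 and 11.55 with LPS and 12.09, 11.32 and 12.16 without. The unstimulated array numbered 2 was the low one in both genotypes and overlapped the arrays with LPS. Its log2 fold change with LPS was -0.08 ± 0.25 in ΔTrspM macrophages (limma adjusted p = 0.87) and -0.48 ± 0.25 in control macrophages (limma adjusted p = 0.244). Without the unstimulated control array numbered 2, the one with high interferon response genes, the value in control macrophages was -0.75 with an adjusted p of 0.0508. Of the 4 further probe sets of Hmgcs1, none passed.

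Idi1 encodes isopentenyl-diphosphate isomerase, which supplies the units from which longer isoprenoids are built. Its log2 signal was 10.77, 10.87 and 10.99 in ΔTrspM macrophages with LPS and 10.86, 10.48 and 10.79 in unstimulated ones. Control signals were 10.69, 9.44 and 11.12 with LPS and 10.67, 10.18 and 11.51 without. The spread among control arrays (SD 0.87 with LPS and 0.67 without) was wider than any difference between group means. The log2 fold change was 0.16 ± 0.42 in ΔTrspM and -0.37 ± 0.42 in control macrophages. The control value was 0.12 without the LPS-stimulated control array numbered 2 and -0.0045 without the unstimulated one numbered 3. The other probe set of Idi1 gave -0.05 in both genotypes and did not pass.

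Fdft1 encodes squalene synthase, the first enzyme of the branch that leads to sterols alone. Its log2 signal was 10.66, 9.70 and 10.23 in ΔTrspM macrophages with LPS and 10.50, 10.10 and 10.73 in unstimulated ones. In control macrophages it was 10.22, 8.81 and 10.31 with LPS and 10.30, 9.73 and 10.85 without. The array numbered 2 was the lowest in every group. On the log2 scale the fold change was -0.25 ± 0.43 in ΔTrspM and -0.51 ± 0.43 in control macrophages, and both rested on the LPS-stimulated arrays numbered 2, since it was 0.0039 in ΔTrspM and -0.03 in control macrophages without that array of the genotype. Of the 3 further probe sets of Fdft1, 1 gave -0.08 and -0.59, and the other 2, which were dim, gave values above 0 in both genotypes, and none passed.

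Cyp51 encodes lanosterol 14α-demethylase, which begins the conversion of lanosterol to cholesterol. Its log2 signal was 10.60, 10.23 and 10.32 in ΔTrspM macrophages with LPS and 10.25, 10.12 and 10.61 in unstimulated ones. The control arrays had 10.41, 9.69 and 10.45 with LPS and 10.19, 9.55 and 10.84 without. The groups lay on top of each other, with log2 fold changes of 0.06 ± 0.32 in ΔTrspM and -0.01 ± 0.32 in control macrophages. The control value was 0.24 without the LPS-stimulated control array numbered 2, and -0.33 or 0.32 without the unstimulated one numbered 2 or 3. Of the 2 further probe sets of Cyp51, 1 gave -0.46 in ΔTrspM and -0.52 in control macrophages and the other 0.11 and -0.15, and neither passed.

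**Figure D2:**
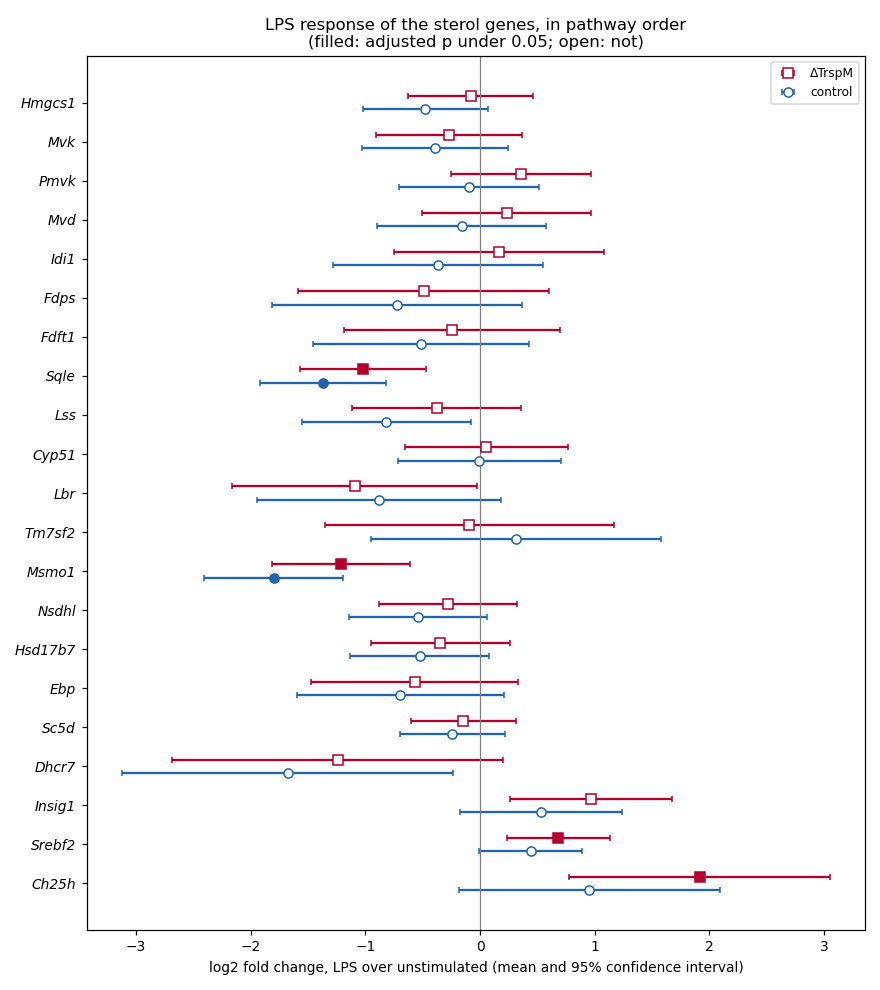
Log2 fold change with LPS over unstimulated (horizontal axis, with 95% confidence interval) of the sterol synthesis enzymes in pathway order and of Insig1, Srebf2 and Ch25h (vertical axis), with squares for ΔTrspM and circles for control macrophages, filled where the adjusted p was under 0.05. Sqle and Msmo1 are filled on the left in both genotypes, and Srebf2 and Ch25h are filled on the right in ΔTrspM macrophages.

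The other enzymes of the pathway gave 1 call. Of 13 other synthesis enzymes measured, 1 was lower and 0 were higher in each genotype. Of all genes, 8.51% were lower in ΔTrspM and 8.54% in control macrophages. The lower enzyme was Msmo1, which encodes methylsterol monooxygenase 1, a step after Cyp51. The log2 signal of Msmo1 was 10.49, 10.75 and 10.69 in ΔTrspM macrophages with LPS and 11.84, 11.81 and 11.91 in unstimulated ones. Control macrophages gave 10.30, 9.37 and 10.36 with LPS and 11.88, 11.43 and 12.11 without, so that the arrays did not overlap in either genotype. Its log2 fold change was -1.21 ± 0.27 in ΔTrspM (limma adjusted p = 0.0124) and -1.80 ± 0.27 in control macrophages (limma adjusted p = 0.0013). The median over the 13 enzymes was -0.35 in ΔTrspM and -0.54 in control macrophages.

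More of these enzymes passed with the replicate number as a block, which compares arrays of the same number. With the block, 3 of 13 were lower in ΔTrspM macrophages (Dhcr7, Lbr and Msmo1) and 6 of 13 in control macrophages (Dhcr7, Ebp, Fdps, Lbr, Lss and Msmo1). Calls over all genes were more numerous too in that fit, with 13.2% of all genes lower and 9.28% higher in ΔTrspM macrophages and 13.4% lower and 9.15% higher in control macrophages. Dhcr7, which encodes the reductase of a final step to cholesterol, had a log2 fold change of -1.24 in ΔTrspM and -1.68 in control macrophages, with adjusted p of 0.249 and 0.116 without the block and 0.0156 and 0.0037 with it. Lss, which closes squalene epoxide into lanosterol, had -0.38 and -0.82, with adjusted p of 0.519 and 0.132 without the block and 0.26 and 0.0249 with it. The block changed none of the calls of the 8 genes.

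Genes that control SREBP, or degrade enzymes when sterols are high, moved in both directions. Of 9 measured, 2 were higher and 1 was lower in each genotype. Of all genes, 7.29% were higher and 8.51% lower in ΔTrspM macrophages, and 7.09% higher and 8.54% lower in control macrophages. Rnf139 and Rnf145, which encode ubiquitin ligases of the endoplasmic reticulum, had log2 fold changes of 0.73 and 0.98 in ΔTrspM macrophages and of 0.98 and 1.10 in control macrophages. Marchf6, which encodes the ubiquitin ligase that directs squalene epoxidase to degradation, was lower, with -1.39 in ΔTrspM and -1.08 in control macrophages. Mbtps2, which encodes a protease that cleaves SREBPs, had -0.50 in ΔTrspM and -0.52 in control macrophages and was called lower in both with the block alone (limma adjusted p = 0.0461 and 0.0382, against 0.0649 and 0.0544 without it).

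Of 5 measured genes of sterol uptake and movement, 1 was lower in ΔTrspM and 3 in control macrophages, where 8.51% and 8.54% of all genes were. Stard4, which encodes a carrier of cholesterol between membranes, passed in both (log2 fold change -0.95 in ΔTrspM and -1.25 in control macrophages). Tmem97, which encodes a sterol-regulated membrane protein, and Npc1, which encodes a protein that moves cholesterol out of lysosomes, had -0.93 and -0.85 in ΔTrspM macrophages, which missed the threshold (limma adjusted p = 0.0717 and 0.075), and -1.03 and -0.95 in control macrophages, which passed at limma adjusted p = 0.0488 and 0.04999. With the block Tmem97 was lower in both genotypes and Npc1 in neither. The 5 genes of cholesterol efflux, such as Abca1 and Abcg1, which encode transporters driven by LXR, passed in neither genotype.

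Of 8 measured genes of oxysterol making and sensing, 2 were lower in each genotype and 0 higher. The share of all genes that were lower was 8.51% in ΔTrspM and 8.54% in control macrophages. Gpr183 encodes the receptor for 7α,25-dihydroxycholesterol, a product made from 25-hydroxycholesterol, and had a log2 signal of 8.69, 6.98 and 7.89 in ΔTrspM macrophages with LPS and 10.89, 10.68 and 10.85 in unstimulated ones. In controls it was 7.85, 6.48 and 7.63 with LPS and 10.85, 11.07 and 10.87 without. It fell by 2.95 on the log2 scale in ΔTrspM macrophages and fell by 3.61 in control macrophages (limma adjusted p = 0.00092 and 0.00023). Hsd3b7, which encodes an enzyme that removes such ligands, was also lower, with log2 fold changes of -1.02 in ΔTrspM and -0.99 in control macrophages. The other 6 genes measured did not pass in either genotype, and with the block Cyp27a1, which encodes sterol 27-hydroxylase, was called lower in control macrophages (log2 fold change -0.60, limma adjusted p = 0.0421, against 0.103 without it).

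Fatty acid synthesis, which is under SREBP1, held 3 lower genes of 11 in ΔTrspM and 4 of 11 in control macrophages, and 0 higher. The share of lower genes among all genes was 8.51% and 8.54%. Scd2 and Fads1, which encode desaturases, had log2 fold changes of -3.04 and -1.72 in ΔTrspM macrophages and of -2.78 and -2.10 in control macrophages, and Elovl6, which encodes an elongase, had -1.63 and -2.05. Fasn, which encodes fatty acid synthase, had -0.99 in ΔTrspM macrophages (limma adjusted p = 0.0666) and -1.24 in control macrophages (limma adjusted p = 0.0263). With the block 5 were lower in ΔTrspM and 6 in control macrophages, Fasn in both, where 13.2% and 13.4% of all genes were lower.

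None of the 8 genes passed in any comparison of genotypes. Among unstimulated macrophages 0% of all genes passed, with LPS 0.011% (2 genes), and over the mean of both stimuli 0.022% (4 genes). Among the 8 genes, 0 were under an unadjusted p of 0.05 with LPS, where 5.78% of all genes were, and 1 was in unstimulated macrophages, where 2.39% of all genes were. None of the genes in the pathway lists passed either.

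The 1 gene was Ch25h, with a log2 fold change of -1.14 ± 0.52 (ΔTrspM over control, 2.21-fold lower) in unstimulated macrophages, an unadjusted p of 0.0485 and an adjusted p of 0.99986. The ΔTrspM arrays, at 11.99, 9.85 and 12.42, were lower than the same-numbered control arrays, at 12.65, 12.73 and 12.31, in 2 of 3 pairs, and the groups overlapped. Without the unstimulated ΔTrspM array numbered 2 the value was -0.36 ± 0.25. In the presence of LPS it was -0.18 ± 0.52, with an interval from -1.32 to 0.95.

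With LPS the 5 enzymes and Insig1 had means above those of control macrophages on the probe sets used. Further probe sets did not all share this direction. That of Idi1 gave -0.04, those of Cyp51 gave 0.19 and -0.11, and those of Hmgcs1 gave 0.51, 0.43, 0.25 and 0.01. Those of Fdft1 gave 0.60 and, on the dim ones, 0.38 and -1.18. None of the further probe sets passed. The log2 fold change of ΔTrspM over control was 0.37 ± 0.25 for Hmgcs1, 0.38 ± 0.25 for Sqle, 0.46 ± 0.42 for Idi1, 0.41 ± 0.43 for Fdft1, 0.20 ± 0.32 for Cyp51 and 0.56 ± 0.32 for Insig1, with adjusted p between 0.917 and 0.975. Hmgcs1 was the only one of the 8 genes whose arrays did not overlap, where 9.14% of all genes did not, and Hmgcs1 and Sqle were higher in 3 of 3 same-numbered pairs. The 95% interval of Hmgcs1 ran from -0.18 to 0.92 and that of Srebf2, at -0.02, from -0.47 to 0.43. The median over the 8 genes was 0.38, and that of all genes 0.04. The signs depend on the scaling and, for Idi1, Fdft1 and Cyp51, on the LPS-stimulated control array numbered 2. With all arrays, 6 of the 8 values were above 0 here and 7 with arrays divided by a trimmed mean. With arrays centred on their medians 2 were, and with no scaling 0. The median of all genes was -0.08 with centring and -0.60 with no scaling. Above the median of all genes lay 6 of the 8 here, 7 with a trimmed mean, 5 with centring and 5 with no scaling. In unstimulated macrophages the arrays overlapped for all 8 genes on the probe sets used, where 7.32% of all genes did not overlap, and the values of the genes other than Ch25h ran from -0.26 (Srebf2) to 0.15 (Fdft1). The other probe set of Srebf2 gave -0.48 there, with every ΔTrspM array below every control array, and did not pass.

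These differences were uneven over the pairs. In the LPS pairs numbered 1, 2 and 3, ΔTrspM minus control was 0.08, 1.43 and -0.13 for Idi1, 0.44, 0.89 and -0.09 for Fdft1, and 0.24, 0.86 and 0.05 for Sqle. The pair numbered 2 gave the highest of the 3 differences for each of the 5 enzymes. That pair holds the dim ΔTrspM array and the control array on which all 5 enzymes were lowest in their group. Without that ΔTrspM array the log2 fold changes were 0.40 for Hmgcs1, 0.45 for Sqle, 0.46 for Idi1, 0.66 for Fdft1 and 0.27 for Cyp51, each at least as high as with it. Without the LPS-stimulated control array numbered 2 they were 0.28 for Hmgcs1, 0.08 for Sqle, -0.03 for Idi1, -0.07 for Fdft1 and -0.05 for Cyp51. The value of Insig1 was 0.59 without that control array, 0.30 without the ΔTrspM array numbered 2 and 0.96 without the one numbered 3.

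**Figure D3:**
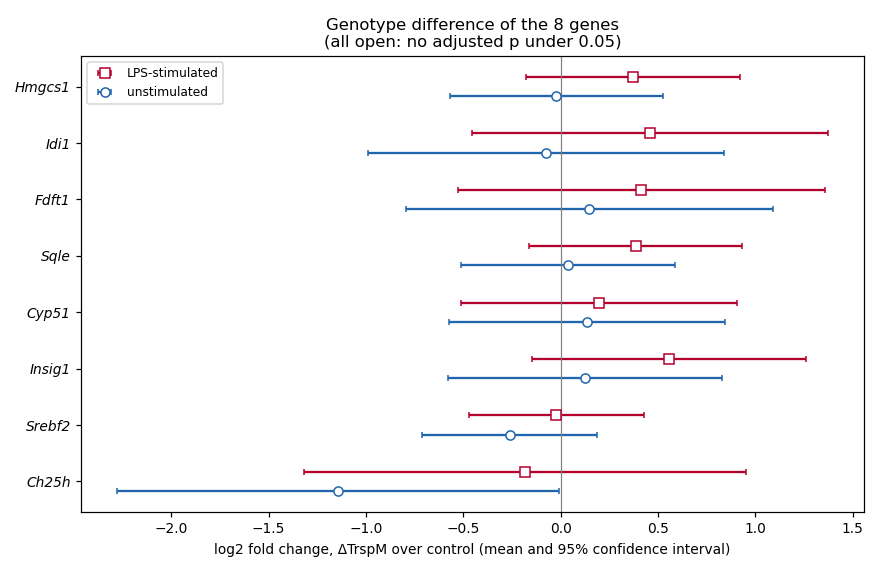
Log2 fold change of ΔTrspM over control macrophages (horizontal axis, with 95% confidence interval) for the 8 genes (vertical axis), with squares for LPS-stimulated and circles for unstimulated macrophages. All symbols are open, since no adjusted p was under 0.05, and the interval of Ch25h in unstimulated macrophages runs from -2.28 to -0.01.

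The LPS response itself was compared between genotypes by the interaction. The LPS response in ΔTrspM minus that in control macrophages was above 0 for all 8 genes, where 51.7% of all genes were above 0, and between 0.06 for Cyp51 and 0.96 for Ch25h on the log2 scale. None of the 8 passed (adjusted p = 0.99997 for each), 0 were under an unadjusted p of 0.05, and 0% of all genes passed, with 555 under an unadjusted p of 0.05. The scaling changed these directions too, with 8 of 8 values above 0 for a trimmed mean, 3 for arrays centred on their medians and 1, Ch25h, for no scaling. The median of all genes moved with the scaling, from 0.01 to 0.05, -0.18 and -0.59 in these settings. All 8 genes lay above that median in the main fit, and 7, 6 and 6 of them in these settings. Single arrays changed the directions as well. Without the unstimulated ΔTrspM array numbered 2 the interaction of Ch25h was 0.18. Without the LPS-stimulated control array numbered 2 it was 0.04 for both Sqle and Idi1, -0.22 for Fdft1 and -0.18 for Cyp51, and without the unstimulated control array numbered 3 it was 0.17 for Idi1, -0.01 for Fdft1 and -0.26 for Cyp51. The interval of the interaction ran from -0.64 to 2.57 for Ch25h and from -0.43 to 1.12 for Sqle. Sqle thus passed in both genotypes with no difference between them that could be shown, and the passing of Ch25h and Srebf2 in ΔTrspM macrophages alone was not a difference that passed.

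Read by group means, Sqle stood in 2 levels, with both unstimulated groups (11.34 ± 0.05 in ΔTrspM and 11.30 ± 0.21 in control, SD, n = 3 each) above both LPS groups (10.32 ± 0.14 in ΔTrspM and 9.93 ± 0.53 in control). Within each level the genotypes overlapped. Ch25h and Srebf2 stood the other way, with both LPS groups above both unstimulated ones. For Ch25h the means were 13.33 ± 0.30 in ΔTrspM and 13.52 ± 0.08 in control with LPS, and 11.42 ± 1.38 in ΔTrspM and 12.56 ± 0.23 in control without. For Insig1 the order was ΔTrspM with LPS, control with LPS, unstimulated ΔTrspM and unstimulated control, and each overlapped the next except that control with LPS lay above unstimulated ΔTrspM. For Hmgcs1, Idi1, Fdft1 and Cyp51 no neighbouring groups were apart except for Hmgcs1 in ΔTrspM over control with LPS. Over all 18193 genes, arrays with and without LPS did not overlap for 34.3% in ΔTrspM and 34.1% in control macrophages, against 3 and 4 of the 8 genes.

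The 5 enzymes varied together from array to array within the groups. The array numbered 2 was the lowest of its group in 19 of 20 cases (5 enzymes in 4 groups), the exception being Idi1 in ΔTrspM macrophages with LPS. The farthest were Fdft1 and Idi1 on the LPS-stimulated control array numbered 2, at -0.97 and -0.98 from their group means. The share of all genes lowest on the arrays numbered 2 is not given, so the 19 of 20 has no background beside it. The 20 cases are not independent, since the enzymes correlated with each other within groups (median r = 0.84). The 13 other synthesis enzymes together averaged 8.92 on the array numbered 2 and 9.28 and 9.33 on the other ΔTrspM arrays with LPS, and 8.30 against 9.07 and 9.39 on the control arrays with LPS. Among unstimulated arrays they averaged 9.25 on the array numbered 2 against 9.59 and 9.96 in ΔTrspM macrophages, and 9.06 against 9.55 and 10.06 in control macrophages.

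Other measures moved with the number too. The summed signal of neutrophil and precursor markers (6 of 7 measured) was lowest on the array numbered 2 in all 4 groups. Values of 7688, 7481 and 4555 on these arrays stood against 14283 and 18371, 12939 and 17345, and 7526 and 10217 on the others of ΔTrspM with LPS, control with LPS and unstimulated ΔTrspM macrophages, and in unstimulated control macrophages it was 6130 against 7165 and 11439. The summed signal of the 9 stromal markers on the array numbered 2 was 3364 against 6695 and 10784 in ΔTrspM with LPS, 4917 against 4751 and 5374 in control with LPS, 1163 against 6013 and 9305 in unstimulated ΔTrspM, and 595.0 against 3380 and 8087 in unstimulated control macrophages. Among these markers Pdgfrb rose with LPS, from a mean log2 signal of 6.89 to 11.34 in control and from 7.68 to 10.67 in ΔTrspM macrophages. It was at 11.95 on the LPS-stimulated control array numbered 2, against 11.02 and 11.06 on the others of that group. The stromal sums with LPS hold this rise, so they do not show the amount of stromal RNA alone. In a culture, fewer cells of a type and less RNA for each cell cannot be told apart, and the part of these cells, or of the overall signal, in the levels of the enzymes was not tested.

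**Figure D4:**
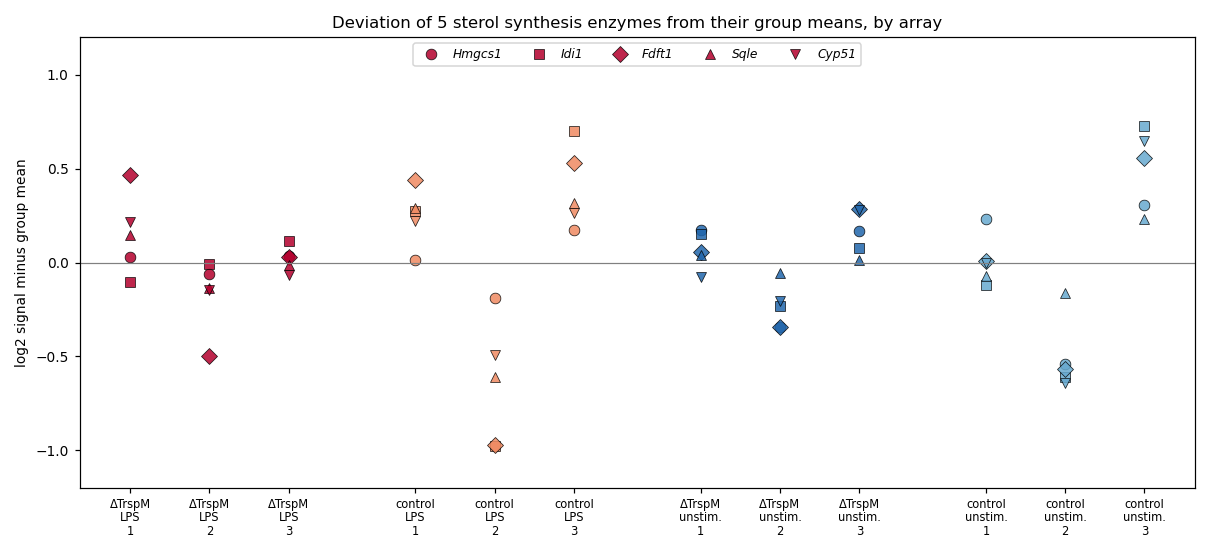
Deviation of the log2 signal of 5 synthesis enzymes from their group means (vertical axis) on each of the 12 arrays (horizontal axis, by group and replicate number). Arrays numbered 2 lie at or below 0 in all 4 groups, and the deepest points, at -0.98 and -0.97, are Idi1 and Fdft1 on the LPS-stimulated control array.

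The genes whose pattern over the 12 arrays was most like that of Ch25h, by Pearson correlation of log2 signals, were Rbfox3 (r = 0.969), Gpihbp1 (0.936), Bst2 (0.901), Carhsp1 (0.900) and Fgfr4 (0.899). Ch25h was at 9.85 on the unstimulated ΔTrspM array numbered 2, far below all other arrays, so these correlations lean on that array. The signals of Rbfox3, Gpihbp1 and Fgfr4 were low, with group means between 5.50 and 7.41. Bst2 encodes tetherin, an interferon-induced protein that holds budding viruses at the cell surface. Those most like the mean standardized signal of the 5 enzymes were Cmc1 (0.978), Entpd5 (0.973), Acot13 (0.967), Ift140 (0.965) and Tmem256 (0.962). These are descriptions over arrays that share their groups, taken as the highest among 18193 genes, with no test.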

How the data were processed

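The authors hybridized total RNA of 12 BMDM cultures and normalized the arrays in Expression Console. The deposited values are linear intensities of 45101 probe sets; how probes were summarized is not given. No columns of sample values were left unused. The number of arrays limits the precision, and depth in reads does not apply. Groups came from the sample labels, which call the arrays biological replicates 1 to 3.

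Of 45037 probe sets other than controls, 34945 carried 1 gene symbol by the platform annotation, 932 several and 9160 none. Signals were quantile-normalized, 16 was added and log2 was taken, so fold changes of dim genes are understated. The probe set of highest mean was used for each of 18193 genes. No gene was left out for a low signal, and 11627 of them had a mean log2 signal of at least 6. One limma 3.58.1 fit (R 4.3.3) over 4 groups (8 residual degrees of freedom) gave the contrasts LPS minus unstimulated in each genotype, ΔTrspM minus control under each stimulus and over both, and the interaction, with Benjamini-Hochberg adjustment over all genes and a threshold of 0.05. The scripts were tested on simulated data. With 3 arrays against 3 an exact test cannot go below p = 0.1, so the p-values rest on the pooled spread.

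The members and the gene lists were chosen with earlier results of these data known. Named were the 8 members, up to 4 genes of each list with the smallest p in either LPS contrast, list genes that passed between genotypes, the 5 genes most like Ch25h and the 5 most like the enzymes, Lyz2 and the cell markers; list genes named outside this rule were named after their values were seen. Some genes of the pathway are not reported here. Same-numbered arrays correlated after removal of group means at 0.126 to 0.442 in all 12 compared pairs, each above the required 0.1, so the numbers were taken to pair the arrays, and a blocked fit, with 6 residual degrees of freedom, is reported beside calls that it changed. Alternatives were other scalings, pseudocounts and filters, all probe sets or their mean, a fit of only the arrays compared, trend and robust options, the block, and left-out arrays.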

Additional observations from a re-analysis of the deposited data

How the results depend on the processing

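Over 26 alternatives none of the 8 genes passed in any comparison of genotypes or in the interaction, and Sqle passed as lower with LPS in 25 in control and 22 in ΔTrspM macrophages. The count of higher members in control macrophages, 0, became 1 (Ch25h) when only the arrays compared were fitted, when the arrays numbered 2 were left out, with or without the block, and when both ΔTrspM arrays numbered 2 were left out, a setting chosen after seeing the data; leaving out 1 array gave 0 to 1. The count of lower members there, 1, became 0 with no scaling. In ΔTrspM macrophages the 2 higher members became 1 with centring on medians, a trimmed mean, a pseudocount of 1, all probe sets, the mean of probe sets, arrays numbered 2 left out (with or without the block) or both ΔTrspM arrays numbered 2 left out, 0 with no scaling or only the arrays compared, and 3, with Insig1, with a pseudocount of 64, without dim genes, or with the trend and robust options; leaving out 1 array gave 1 to 2. The 1 lower member became 0 without both ΔTrspM arrays numbered 2, and 0 to 1 without 1 array. Srebf2 in ΔTrspM macrophages reversed to -0.48 with no scaling. The causes were not tested. The replicate block changed no call of the 8 genes. Uncalled values changed sign in 4 to 23 of 208 values of each comparison.

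Counts over all genes moved more. With LPS in control macrophages, 1290 higher genes became 396 with no scaling. The 1554 lower genes became 497 with no scaling, 1028 with only the arrays compared, 2444 with the block, and as few as 950 without 1 array. In ΔTrspM macrophages 1326 higher genes became 261 with no scaling and 847 without both ΔTrspM arrays numbered 2. The 1548 lower genes became 2651 with centring on medians, 3073 with no scaling and 2397 with the block. They became 1005 without arrays numbered 2, 592 without both ΔTrspM arrays numbered 2, and as few as 798 without 1 array. Over all probe sets the calls were 2182 higher and 2362 lower in control macrophages, and 2142 and 2361 in ΔTrspM macrophages. These are counts of 34945 probe sets and not of 18193 genes, so they are not set against the counts of genes. Between genotypes the counts of 0 (unstimulated), 2 (LPS) and 4 (mean) ran over 0 to 4, 0 to 5 and 0 to 6, and the interaction over 0 to 3.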
